A study of Mus musculus with 11 samples.

Results

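The genes that build caveolae were followed across 11 RNA-seq libraries of the MamBo mouse mammary carcinoma lines. The set comprised 7 of the 21846 genes in the count table, chosen by symbol, namely the caveolins Cav1 and Cav2, the cavins Cavin1, Cavin2 and Cavin3, and the caveolar neck and membrane-shaping proteins Ehd2 and Pacsin2. The lines came from mammary tumors of FVBhuHER2 mice, which carry human HER2 as a transgene, and the comparisons address how transcription differs between cells that keep HER2 and cells that lost it. Tumor A gave MamBo89, in which HER2 is stable. Tumor B gave MamBo43, in which HER2 is labile, and MamBo38 came from a tumor that grew after MamBo43 cells were injected and no longer makes HER2.

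The 4 MamBo89 libraries (HER2-positive) were an untreated culture, an untreated culture named AG3, a culture kept in trastuzumab for 60 days, and a culture given trastuzumab for 30 days and then grown without it for 30 days. The AG3 library was taken as the MamBo89 clone listed in the methods, since its labels do not call it one. Untreated MamBo43 (HER2-positive) was 1 library. The 2 MamBo43 TRT libraries (HER2-negative) came from MamBo43 cells under each of those trastuzumab schedules. According to the methods, these cells were seeded at high density and had lost HER2. The paper reports that a small share of treated cells stayed HER2-positive, and that untreated cells kept at that density stayed polygonal. The seeding density of the untreated library is not given. Drug, seeding density and loss of HER2 are therefore confounded in these libraries and cannot be told apart. The 4 MamBo38 libraries (HER2-negative) were 2 untreated cultures and 1 culture under each schedule. Trastuzumab, an antibody against HER2, was used at 30 µg/ml throughout. Each line stems from 1 tumor, so line and HER2 status cannot be told apart between MamBo89 and MamBo38.

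Total counts per library ranged from 17040454 to 27127662. Of the 4 MamBo38 libraries, 3 share a code in their names, and the fourth, an untreated culture, carries the code of the other 7 libraries. Epithelial markers (10 genes, among them Epcam and Cdh1) summed to between 2888 and 4145 CPM in MamBo89, to 3797 CPM in MamBo43, to 483 and 2150 CPM in MamBo43 TRT and to between 1.35 and 2.68 CPM in MamBo38, so the epithelial label of a mammary carcinoma did not match the markers of MamBo38. CPM are counts scaled to a common library size, set by the TMM method. Caveolae are abundant in endothelial cells, adipocytes and muscle, and markers of these cells summed to at most 0.893, 2.75 and 5.55 CPM in any library, with Cdh5, Adipoq and Myod1 at or under 3 counts in each group. The lists were not uniform. Fabp4, of adipocytes, had at most 0.485 CPM in MamBo89 and 1.73 to 2.22 CPM in MamBo38. Des, of muscle, had at most 0.194 CPM in MamBo89 and 1.09 to 1.91 CPM in MamBo38. Acta1, also of muscle, had at most 0.525 CPM in MamBo89, at most 0.298 CPM in MamBo38 and up to 2.79 CPM in MamBo43 TRT. The 7 fibroblast markers, another cell type rich in caveolae, summed to between 36 and 98.2 CPM in MamBo89, to 336 CPM in MamBo43, to between 6963 and 7431 CPM in MamBo43 TRT and to between 3820 and 4541 CPM in MamBo38. Col1a2 was the largest part in the HER2-negative groups, at 4682 to 4943 CPM in MamBo43 TRT and 2455 to 3056 CPM in MamBo38. Lum had 0 CPM in all groups, and Thy1 was at or under 3 counts in MamBo38. The sums, like several of the values below, were higher in both HER2-negative groups than in MamBo89. They were highest in MamBo43 TRT, whereas Cav1, Cavin1 and Cavin3 were highest in MamBo38. The part of fibroblast markers in these values was not tested. In bulk libraries, fewer cells that express a gene and less RNA per cell cannot be told apart.

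Caveolae are small flask-shaped pits of the plasma membrane, known for buffering membrane tension and for gathering receptors and lipids. Caveolin-1 inserts into the inner leaflet and oligomerizes, caveolin-2 joins it in mixed oligomers, and a coat of cavin trimers covers the bulb, with cavin-1 required and cavin-2 and cavin-3 as partners. EHD2 is an ATPase that sits at the neck and holds the caveola at the surface, and PACSIN2 is an F-BAR protein that bends the membrane there. The caveolin genes are neighbours. Cav2 lies at chr6:17281185-17289115 and Cav1 at chr6:17306335-17341452 (GRCm38, plus strand), 17.22 kb apart, yet their transcripts differed in pattern across the lines. Cavin1 (chr11:100956733-100970887, minus strand), Cavin2 (chr1:51289126-51302960, plus strand), Cavin3 (chr7:105480083-105482300, minus strand), Ehd2 (chr7:15946958-15967567, minus strand) and Pacsin2 (chr15:83375607-83464606, minus strand) are unlinked or distant. None of the 7 genes shared a stretch of 75 bases, the read length, with transcripts of another gene. Exons of the unannotated antisense gene Gm45667 cover 374 bases of Cavin3 (22.5%), and the library kit keeps no strand, so reads of that stretch cannot be assigned to one gene.

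The promoters of both caveolins and of the pair of cavins with the most unlike pattern are shown, since neighbours and relatives parted in their levels. Each is the 250 bases before the first start listed in RefSeq (GRCm38.p6), read along the gene, and RefSeq lists another start for Cav1 and for Cavin1. The Cavin1 window lies inside the Cavin1 span given above, which comes from GENCODE and starts further upstream. Capitals mark matches, on either strand, to any of 5 short motifs. The TEAD core was searched as GGAATG. For the E-box the letters were CACCTG, and for the GC box GGGCGG. The TATA box was taken as TATAAA, and the AP-1 site as TGACTCA. No motif is contained in another. These motifs were chosen after the counts were seen.
Cav1, chr6:17306085-17306334, plus strand: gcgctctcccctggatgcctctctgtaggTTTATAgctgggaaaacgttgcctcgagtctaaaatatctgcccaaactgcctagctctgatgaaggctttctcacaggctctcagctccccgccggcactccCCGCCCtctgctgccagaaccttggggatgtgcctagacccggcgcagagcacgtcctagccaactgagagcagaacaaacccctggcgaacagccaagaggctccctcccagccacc
Cav2, chr6:17280935-17281184, plus strand: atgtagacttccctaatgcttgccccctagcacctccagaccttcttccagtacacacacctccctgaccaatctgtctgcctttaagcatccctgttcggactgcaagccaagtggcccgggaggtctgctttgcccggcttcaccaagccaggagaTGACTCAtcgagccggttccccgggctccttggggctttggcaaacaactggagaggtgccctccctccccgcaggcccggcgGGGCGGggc
Cavin1, chr11:100970618-100970867, minus strand: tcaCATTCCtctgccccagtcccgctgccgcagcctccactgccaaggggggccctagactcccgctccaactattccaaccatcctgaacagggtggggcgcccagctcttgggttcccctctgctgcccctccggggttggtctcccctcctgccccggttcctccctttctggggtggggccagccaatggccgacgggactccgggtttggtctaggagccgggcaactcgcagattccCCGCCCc
Cavin2, chr1:51288876-51289125, plus strand: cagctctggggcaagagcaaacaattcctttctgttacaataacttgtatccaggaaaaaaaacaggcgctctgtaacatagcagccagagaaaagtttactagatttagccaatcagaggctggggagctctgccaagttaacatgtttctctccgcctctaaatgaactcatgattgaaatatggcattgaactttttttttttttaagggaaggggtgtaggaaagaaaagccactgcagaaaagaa

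The window at the first Cav1 start held 1 GC box and 1 TATA box match, that of Cav2 held 1 GC box and 1 AP-1 match, and that of Cavin1 held 1 GC box and 1 TEAD core match, while none of the 5 motifs occurred in the window of Cavin2. Among 32851 promoters of the same length, 32.7% held the GC box, 12.4% the TATA box, 4.46% the AP-1 site, 12.6% the TEAD core and 17.2% the E-box. Cavin2 also had 2 CpG dinucleotides in its window, fewer than the 10 of Cav1, the 10 of Cav2 and the 12 of Cavin1, and the median over all promoters was 6. Ehd2 had 12 and Pacsin2 had 18 at its first start. Cavin3 was not matched.

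Cav1, the principal caveolin, was almost silent in MamBo89 and high in MamBo38. The AG3 library of MamBo89 had 2 counts (0.0970 CPM) and the other 3 libraries had 0. Untreated MamBo43 had 32.2 CPM. After trastuzumab, MamBo43 TRT had 129 CPM with 30 days of withdrawal and 158 CPM with 60 days of drug. MamBo38 had 218 and 374 CPM in its untreated cultures, 189 CPM after withdrawal and 227 CPM at 60 days. The groups did not overlap at any step of this order. Against 3 counts in each MamBo89 library, the lowest level taken as detected, mean Cav1 was at least 206-fold higher in MamBo43, at least 919-fold higher in MamBo43 TRT and at least 1615-fold higher in MamBo38.

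Cav2, whose product needs caveolin-1 to reach the surface, did not follow its neighbour. MamBo89 libraries had 61.2 (AG3), 40.5, 52.0 and 43.7 CPM, and untreated MamBo43 had 76.5 CPM, the highest value of the gene. The MamBo43 TRT libraries parted, with 67.8 CPM after withdrawal and 28.9 CPM at 60 days. MamBo38 had 46.5, 55.0, 36.9 and 46.9 CPM, within the range of MamBo89 except for its library after withdrawal. Group means were 49.3 ± 9.27 (SD, n = 4) in MamBo89 and 46.3 ± 7.39 (SD, n = 4) in MamBo38.

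Cavin1, which encodes the coat protein without which caveolae do not form, had between 7 and 8 counts in each MamBo89 library, or 0.340, 0.369, 0.467 and 0.441 CPM. Untreated MamBo43 had 14.3 CPM, and MamBo43 TRT had 92.6 and 138 CPM. MamBo38 had 281 and 518 CPM in its untreated cultures and 286 and 303 CPM in its treated ones. As for Cav1, the groups stood in 4 separate steps.

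Cavin2, which helps the membrane to curve, had a different order. AG3 had 83.5 CPM and the other MamBo89 libraries had 48.4, 47.6 and 48.7 CPM, whereas untreated MamBo43 had 8.26 CPM, the lowest value of all libraries. In MamBo43 TRT it stood at 58.2 and 71.4 CPM. MamBo38 had 79.8, 117, 75.9 and 66.6 CPM. Both HER2-negative groups overlapped with MamBo89 through AG3, and the single MamBo43 library lay apart.

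Cavin3, which couples caveolae to protein kinase C signaling, had 0 counts in all 4 MamBo89 libraries, and 3 counts would be a mean of 0.156 CPM there. Untreated MamBo43 had 14 counts, or 0.550 CPM with a 95% Clopper-Pearson interval of 0.301 to 0.923 that covers counting error only. MamBo43 TRT had 13.5 and 14.5 CPM, and MamBo38 had 35.8, 64.3, 44.1 and 40.9 CPM. Mean Cavin3 was therefore at least 3.53-fold higher in MamBo43, at least 89.7-fold higher in MamBo43 TRT and at least 296-fold higher in MamBo38 than 3 counts in each MamBo89 library.

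Ehd2 and Pacsin2 were expressed in every library. Ehd2 had between 88.8 and 116 CPM in MamBo89, 94.7 CPM in MamBo43, 138 and 144 CPM in MamBo43 TRT and between 178 and 265 CPM in MamBo38. MamBo43 fell within the MamBo89 range, and the HER2-negative groups lay above it without overlap. Pacsin2 had 71.2 CPM in AG3 and 143, 127 and 106 CPM in the other MamBo89 libraries. It had 199 CPM in MamBo43, 269 and 219 CPM in MamBo43 TRT and between 247 and 314 CPM in MamBo38, where MamBo43 TRT overlapped with MamBo38.

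**Figure D1:**
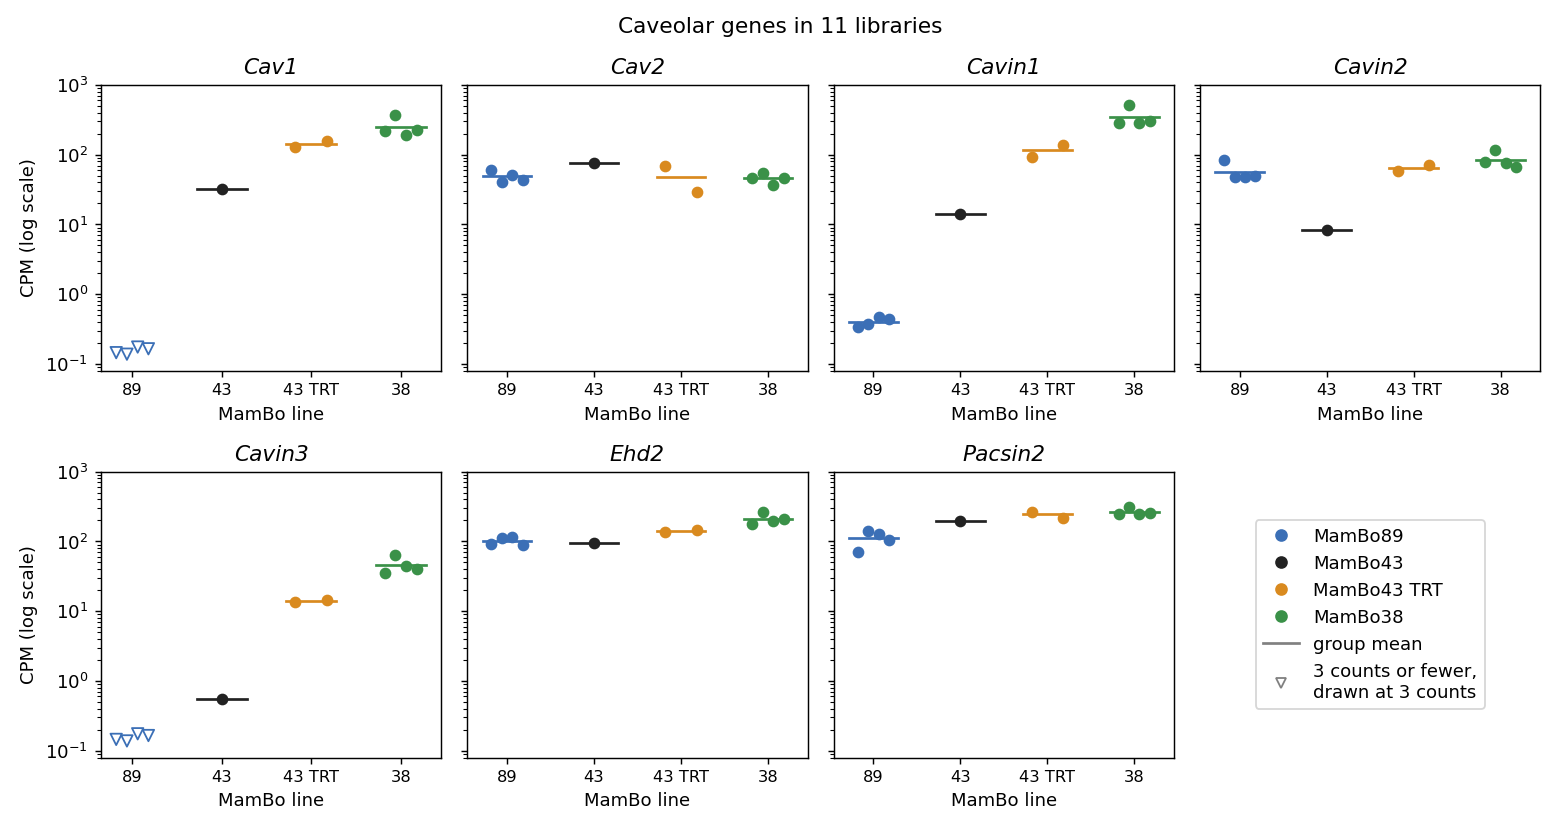
CPM (log scale) of the 7 caveolar genes in each of 11 libraries, by line. Points are libraries, bars are group means, and open triangles are libraries with 3 counts or fewer, drawn at 3 counts. Cav1, Cavin1 and Cavin3 climb from MamBo89 through MamBo43 and MamBo43 TRT to MamBo38, Cav2 stays between 28.9 and 76.5 CPM, and Cavin2 has its lowest point, 8.26 CPM, in MamBo43.

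Levels were compared between genes per kilobase of exon. In MamBo38, Cavin1 was highest at a mean of 96.8 CPM per kb, followed by Cav1 at 73.2, Pacsin2 at 54.6, Ehd2 at 41.4, Cavin3 at 27.8, Cavin2 at 27.7 and Cav2 at 13.9 CPM per kb. The order in MamBo89 was Pacsin2 at 22.8, Ehd2 at 20.0, Cavin2 at 18.7 and Cav2 at 14.8 CPM per kb, with Cavin1 at 0.113, Cav1 at 0.00704 and Cavin3 at 0. MamBo89 thus transcribed the partners, Cavin2 and Cav2, and hardly any Cav1, Cavin1 or Cavin3. Per kb of exon, the ratio of Cav1 to Cav2 was between 0 and 0.00154 in MamBo89, 0.407 in MamBo43, 1.84 and 5.28 in MamBo43 TRT and between 4.55 and 6.59 in MamBo38. Untreated MamBo43 was the only library of tumor B with more Cav2 than Cav1. Cavin1 exceeded Cav1 in all 4 MamBo38 libraries, with ratios of 1.24 to 1.46, and stood below it in the 3 MamBo43 libraries, at 0.428 untreated and at 0.688 and 0.840 in MamBo43 TRT.

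**Figure D2:**
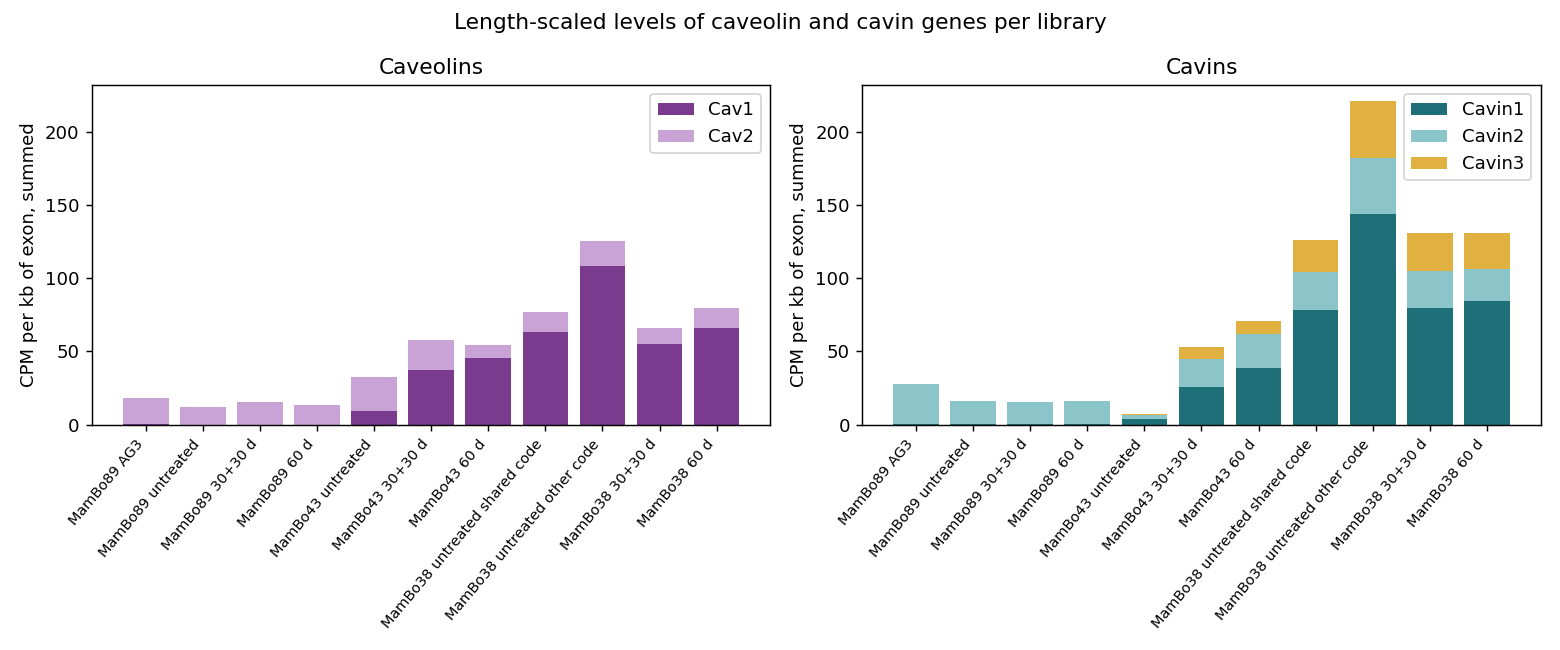
Summed CPM per kb of exon of the caveolins (left) and of the cavins (right) in each library, stacked by gene on a linear axis from 0. In MamBo89 the bars consist almost wholly of Cav2 and Cavin2, and in MamBo38 the mean of Cav1 (73.2 CPM per kb) is above that of Cav2 (13.9), and that of Cavin1 (96.8) above those of Cavin3 (27.8) and Cavin2 (27.7).

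Across HER2 status, 4 of the 7 genes were higher in the 6 HER2-negative than in the 5 HER2-positive libraries, and none was lower. Calls came from edgeR's quasi-likelihood test and needed an adjusted p below 0.1, over all genes tested, together with a log2 fold change of 1 or more in either direction. Of the 12364 tested genes, 32.8% were called, 15.8% as higher and 17% as lower. Cavin3 differed by a log2 fold change of 8.08 (SE 1.08, adjusted p 1.25e-04), Cavin1 by 6.37 (SE 1.24, adjusted p 0.00137), Cav1 by 5.05 (SE 1.66, adjusted p 0.0246) and Pacsin2 by 1.01 (SE 0.22, adjusted p 0.00303). The values for Cav1, Cavin1 and Cavin3 rest on MamBo43 within the HER2-positive group. Without that library, Cavin1 differed by 9.37, and Cav1 and Cavin3 were left with MamBo89 libraries at 3 counts or fewer, for which the bounds above apply. Ehd2, at 0.90 (SE 0.17, adjusted p 0.00134), was under the fold minimum, and neither Cavin2, at 0.72 (SE 0.42, adjusted p 0.173), nor Cav2, at -0.22 (SE 0.23, adjusted p 0.439), passed the test.

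The HER2 groups did not overlap in any library for 5 of the 7 genes, all of them higher without HER2, which is to be read beside 17.5% of tested genes that were higher without overlap. In an exact two-sided permutation test of mean log2(CPM + 1) over all 462 assignments of libraries to the groups, p was 0.00216 for Cav1, Cavin1, Cavin3 and Pacsin2, the smallest that this design allows. It was 0.00433 for Ehd2, 0.0281 for Cavin2 and 0.364 for Cav2. The call of Pacsin2, just over the fold minimum, was lost without AG3 (0.87), without the untreated MamBo38 library of the other code (0.96), and without the MamBo89 library at 60 days (0.94) or after withdrawal (0.996). Cavin2 gained a call without AG3, at 1.05 (edgeR adjusted p 0.0611), and Ehd2 without MamBo43 TRT, at 1.08 (edgeR adjusted p 1.65e-04). Tumor A gave only HER2-positive libraries, and untreated MamBo43 was the only HER2-positive library of tumor B. When the tumor of origin entered the model, the HER2 difference therefore rested on that MamBo43 library. The edgeR log2 fold changes were then 0.39 for Pacsin2, 3.24 for Cavin2, 2.75 for Cav1, 4.23 for Cavin1 and 5.996 for Cavin3. In the fewer untreated libraries alone, Cav1 stood at 4.76 (adjusted p 0.190) and Pacsin2 at 1.03 (adjusted p 0.159), neither past the test, while Ehd2 was called at 1.17. Within the 8 libraries that share a code the same 4 genes passed, Cav1 at 5.09 (adjusted p 0.0861), Cavin1 at 6.28, Cavin3 at 7.92 and Pacsin2 at 1.06.

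The lines were then compared in pairs from 1 fit with 4 groups over 13782 tested genes. These comparisons share libraries and are not independent of each other. Between MamBo38 and MamBo89, the ends of the series, 5 of 7 genes were higher in MamBo38 and none was lower, beside 41.9% of genes called, 19.9% higher and 22% lower. Cavin1 differed by 9.74 on the log2 scale (SE 0.33, adjusted p 9.52e-09), Pacsin2 by 1.27 (SE 0.20, adjusted p 2.63e-04) and Ehd2 by 1.06 (SE 0.15, adjusted p 1.05e-04). Cav1 (adjusted p 1.89e-08) and Cavin3 (adjusted p 3.87e-07) were called, with the bounds given above as their folds. Cavin2, at 0.57 (SE 0.23, adjusted p 0.0477), stayed under the fold minimum, and Cav2 differed by -0.09 (SE 0.25, adjusted p 0.773). Only the untreated MamBo38 library of the other code shares its code with MamBo89. With the code in the names as a block, the contrast therefore rested on that library within MamBo38, and Cavin2 stood at 1.03. All 5 called genes were separate in the 8 libraries, beside 28.7% of genes that were higher without overlap. That separation fixes their exact permutation p at 0.0286, the smallest that 70 assignments allow, so this p adds nothing to it. Ehd2 fell just under the fold minimum without the untreated MamBo38 library of the other code (0.94) or without the MamBo89 library at 60 days (0.99).

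Against untreated MamBo43, 5 of 7 genes were higher in MamBo38, beside 35.9% of genes called, 17.4% higher and 18.5% lower. Cavin3 differed by 6.38 (SE 0.54), Cavin1 by 4.60 (SE 0.46), Cavin2 by 3.36 (SE 0.46), Cav1 by 2.98 (SE 0.47) and Ehd2 by 1.17 (SE 0.25), with edgeR adjusted p between 2.69e-05 and 0.00346. Pacsin2, at 0.44 (adjusted p 0.297), and Cav2, at -0.72 (adjusted p 0.145), did not pass. This comparison rests on 1 MamBo43 library, which is assumed to vary like the other groups, and the same holds wherever untreated MamBo43 is compared.

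Between the HER2-positive lines, the caveolar genes moved in both directions. In MamBo43, Cavin1 was higher than in MamBo89 by 5.14 (SE 0.36, adjusted p 8.61e-06), and Cav1 and Cavin3 were also called higher, while Cavin2 was lower, with a log2 fold change of -2.79 (SE 0.45, adjusted p 0.00174). These 3 genes called higher compare with 11% of tested genes, and the 1 called lower with 7.86%, of 18.9% called in all. Pacsin2, at 0.83 (SE 0.29, adjusted p 0.0738), Cav2, at 0.63 (adjusted p 0.268), and Ehd2, at -0.11 (adjusted p 0.776), were not called. Untreated MamBo43 therefore had Cav1 and Cavin1 without the Cavin2 level of either other line.

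MamBo43 cells that had lost HER2 under trastuzumab carried more of the caveolar core than untreated MamBo43. Of the 7 genes, 4 were higher and none lower, beside 29.1% of genes called, 13.6% higher and 15.5% lower. Cavin3 rose by 4.66 (SE 0.51, adjusted p 8.06e-04), Cavin1 by 3.01 (SE 0.43, adjusted p 8.16e-04), Cavin2 by 2.98 (SE 0.47, adjusted p 0.00140) and Cav1 by 2.16 (SE 0.47, adjusted p 0.00678). Ehd2, at 0.58 (adjusted p 0.112), Pacsin2, at 0.30 (adjusted p 0.538), and Cav2, at -0.66 (adjusted p 0.255), did not pass. Leaving out the library after withdrawal brought Cav2 to -1.42 and past the test.

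Against MamBo38, MamBo43 TRT was lower in 2 of 7 genes and higher in none, beside 20.4% of genes called, 10.2% higher and 10.2% lower. Cavin1 stood at -1.59 (SE 0.28, adjusted p 0.00221) and Cavin3 at -1.72 (SE 0.28, adjusted p 0.00409). Cav1 at -0.81 (SE 0.31, adjusted p 0.0689) and Ehd2 at -0.59 (SE 0.18, adjusted p 0.0321) were under the fold minimum, though both MamBo43 TRT libraries lay below all 4 MamBo38 libraries for these 4 genes, as was so for 28.1% of tested genes. Cavin2 (-0.39), Pacsin2 (-0.14) and Cav2 (0.06) did not pass the test. With the code in the names as a block, Cav1 stood at -1.38. That fit rested on the untreated MamBo38 library of the other code, the only one of its line to share a code with MamBo43 TRT.

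**Figure D3:**
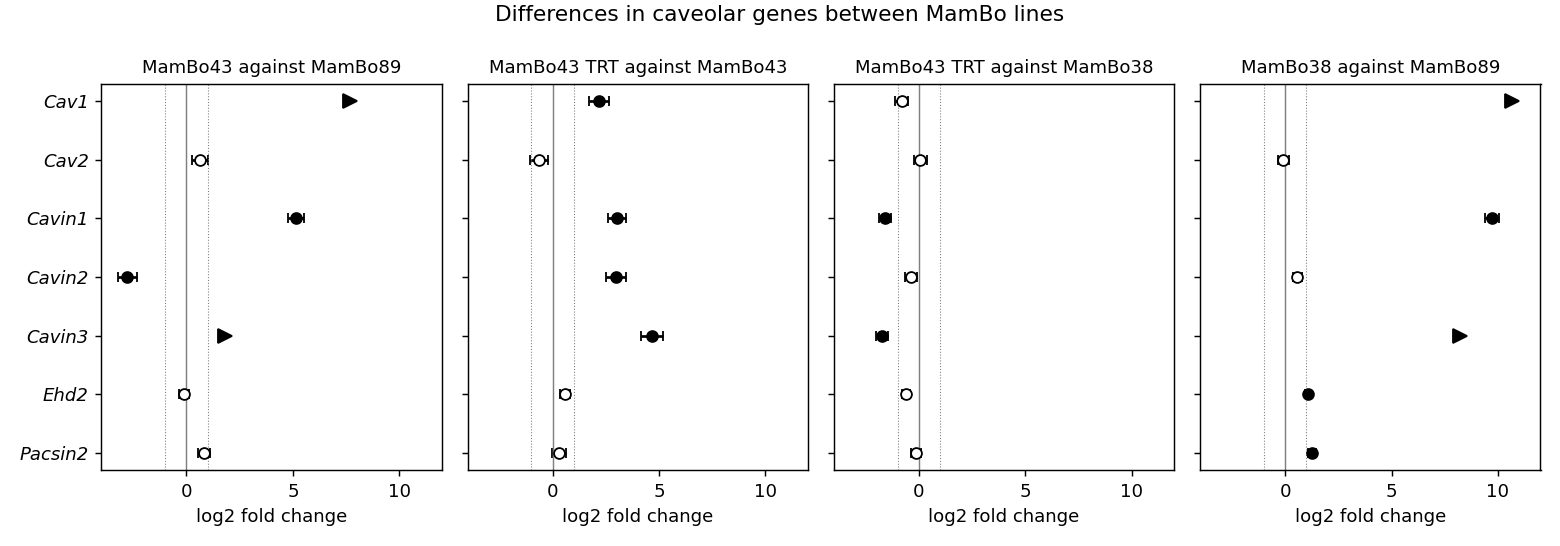
Log2 fold changes of the 7 genes in 4 comparisons of lines, with edgeR error bars of 1 SE. Filled points are called, open points are not, triangles are lower bounds against 3 counts in each MamBo89 library, and dotted lines mark a log2 fold change of 1 in either direction. Cavin2 points down by 2.79 in MamBo43 against MamBo89 and up by 2.98 in MamBo43 TRT against MamBo43.

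Set against the MamBo38 mean, the genes of tumor B had covered unequal distances. Untreated MamBo43 had 1.19% of the MamBo38 mean for Cavin3, 4.13% for Cavin1, 9.74% for Cavin2 and 12.8% for Cav1, but 44.6% for Ehd2, 74.2% for Pacsin2 and 165% for Cav2. In MamBo43 TRT, after withdrawal and at 60 days respectively, Cavin2 reached 68.6% and 84.3%, Cav1 51.3% and 62.5%, Cavin1 26.7% and 39.7% and Cavin3 29.3% and 31.2%. The 60-day library was above the withdrawal library for each of these 4 genes and for Ehd2, at 67.8% against 64.9%. It was below the withdrawal library for Cav2, at 62.4% against 146%, and for Pacsin2, at 81.75% against 100%. With 1 library for each schedule, the difference between schedules has no replicate check.

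**Figure D4:**
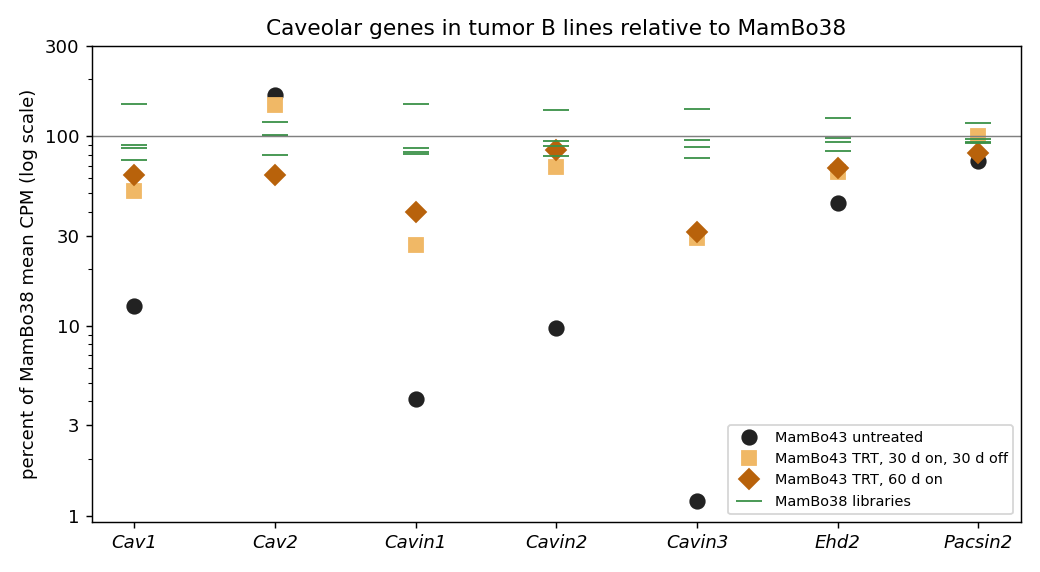
Each gene's CPM in the untreated MamBo43 library and in both MamBo43 TRT libraries as a percent of the MamBo38 mean (log scale), with the 4 MamBo38 libraries as green dashes. Cavin3 moves from 1.19% to 29.3% and 31.2%, and Cavin2 from 9.74% to 68.6% and 84.3%, the latter inside the spread of MamBo38.

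Trastuzumab was not followed by a change called by edgeR in MamBo89 and MamBo38 with all libraries, which kept their HER2 status according to the methods. In each line, 0 of 7 genes and 0% of all tested genes were called by edgeR between the 2 treated and the 2 untreated libraries. At an unadjusted p under 0.05, 724 genes (5.25%) differed in MamBo89 and 230 (1.67%) in MamBo38, and DESeq2 called 29 and 1 genes. The untreated MamBo89 libraries were AG3, taken as the clone, and the parental culture, so their spread includes that difference. Without the parental library edgeR called genes in MamBo89, though no member. AG3 was then the only untreated library of the line, so clone and drug cannot be told apart there. In MamBo38, Cav1 differed by -0.51 (SE 0.32), Cavin1 by -0.43 (SE 0.28), Cavin2 by -0.46 (SE 0.28) and Cavin3 by -0.23 (SE 0.31). The untreated culture of the other code had the highest CPM of the line for all 7 genes. In MamBo89, Cavin2 differed by -0.46 (SE 0.28) and by -0.01 without AG3, Pacsin2 by 0.11 (SE 0.30), Cav2 by -0.10 (SE 0.37), Ehd2 by 2.06e-04 (SE 0.22) and Cavin1, at 7 to 8 counts, by 0.34 (SE 0.57). No fold is given there for Cav1 and Cavin3, which had 3 counts or fewer on both sides.

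The difference between lines in the change with trastuzumab was itself tested in a fit with 6 groups. The change in MamBo43 exceeded that in MamBo38 in 4 of 7 genes, beside 19.6% of genes called, 11% higher and 8.63% lower. Cavin3 exceeded it by 4.89 (SE 0.60, adjusted p 0.00568), Cavin1 by 3.45 (SE 0.49, adjusted p 0.00472), Cavin2 by 3.44 (SE 0.48, adjusted p 0.00435) and Cav1 by 2.67 (SE 0.53, adjusted p 0.0187). Against MamBo89, Cavin2 exceeded by 3.44 (SE 0.48, adjusted p 0.00566) and Cavin1 by 2.67 (SE 0.70, adjusted p 0.0379), which are 2 of the 5 genes with a fold, beside 22.2% of genes called, 11.1% higher and 11.2% lower. The call of Cavin1 was lost (2.62, adjusted p 0.111) without the MamBo89 library at 60 days. Ehd2, Pacsin2 and Cav2 were called in neither test, though Cav2 reached -1.34 (adjusted p 0.0761) against MamBo89 without the MamBo43 TRT library after withdrawal.

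The genes most alike in pattern were ranked for each member by Pearson's r of log2(CPM + 1) over the 11 libraries, which share lines and are not independent, so r is a description. Gpx8, a peroxidase of the endoplasmic reticulum, was most like Cav1 (r = 0.998), followed by Tmem37 (0.998) and Akr1b3 (0.998). Cavin1 was closest to Phactr1 (0.998), an actin and phosphatase regulator, Col6a3 (0.997), a collagen VI chain, and Igfbp6 (0.996), an IGF-binding protein. For Cavin3 they were Bmp6 (0.998), a BMP ligand, Pir (0.998) and Syk (0.998), a tyrosine kinase. Cavin2 tracked Ccnd2 (0.976), the gene of cyclin D2, which had 8.92 CPM in MamBo43 against means of 153 in MamBo89, 206 in MamBo43 TRT and 204 in MamBo38. Camsap1 (0.970) and Cwc22 (0.964) came next for Cavin2. Ehd2 was most like Sqstm1 (0.987), the autophagy receptor p62, Twf1 (0.982) and Rrp1 (0.981), and Pacsin2 like Tkt (0.977), the transketolase gene, Micu2 (0.976) and Mpv17l2 (0.976). Cav2 had no comparably close partner, with Elovl7 at 0.864, Ell2 at 0.854 and Tgfbr2, a TGF-beta receptor, at 0.851. Among the members, r was 0.990 for Cav1 and Cavin1 and -0.09 for Cav1 and Cav2.

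Relatives of the caveolar genes were read from a fixed list of 7 paralogs, of which 4 were tested between the HER2 groups, 2 were higher and 1 was lower, with a median log2 fold change of 0.90 beside -0.04 over all tested genes. Of all tested genes, 15.8% were called higher and 17% lower. Cavin4, a cavin best known from muscle, had means of 2.49 ± 0.448 CPM (SD, n = 4) in MamBo89, 13.5 ± 1.39 CPM (SD, n = 2) in MamBo43 TRT and 24.7 ± 4.22 CPM (SD, n = 4) in MamBo38, with 1.85 CPM in MamBo43. It was higher without HER2 by 3.15 (SE 0.28, edgeR adjusted p 9.46e-06). Ehd1, an endosomal recycling relative of Ehd2, was higher by 2.67 (SE 0.33), and Ehd4 was lower, at -1.62 (SE 0.28). Cav3, the muscle caveolin, was not among the genes tested.

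The counts in the other lists are to be read beside the same 15.8% and 17% of all tested genes. Of 8 genes that link caveolae to actin, all 8 were tested, none was higher and 1 was lower, with a median of -0.08. That gene was Ror1, a receptor reported to bind caveolar proteins, at -3.21 (SE 0.47), with 8.99 to 17.9 CPM in MamBo89 and 0.954 to 1.69 CPM in all libraries of tumor B. Of 12 receptors and signaling proteins found in caveolae, 9 were tested, 1 was higher and 3 were lower, with a median of -0.09. Fyn, a Src-family kinase, was higher by 1.82 (SE 0.17), while Gnaq, a G protein alpha subunit, stood at -1.30 (SE 0.23) and Bmpr2, a BMP receptor, at -1.13 (SE 0.11). Clathrin-mediated uptake, the route that works beside caveolae, had 22 of 25 genes tested, 1 higher and 1 lower, with a median of 0.12. The higher one was Dnm1, a dynamin, at 3.07 (SE 0.56), and the lower one Hip1r, a clathrin and actin adaptor, at -2.24 (SE 0.66), whose exons overlap with antisense Vps37b over 12.5% of their length.

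Of 11 flotillins and related SPFH proteins, which organize other membrane domains, 9 were tested, 2 were higher and none was lower, with a median of 0.25. Erlin1, of the endoplasmic reticulum, was higher by 2.04 (SE 0.19) and Stom, the stomatin gene, by 1.97 (SE 0.47). A list of 22 genes was read for MRTF and YAP, regulators that sense actin and membrane tension. It held genes known to respond to them, but also the genes of the regulators themselves and of their partners SRF and TEAD. From this list 20 were tested, 5 were higher and none was lower, with a median of 0.33, again beside 15.8% and 17% of all tested genes. Vcl, the gene of vinculin, was higher by 2.20 (SE 0.26), and 25.5% of its exons overlap with antisense Ap3m1. Acta2, the smooth muscle actin gene, had 0 counts in all MamBo89 libraries, 33 counts in MamBo43, 69.2 and 466 CPM in MamBo43 TRT and between 7.35 and 26.6 CPM in MamBo38, so that its highest levels were in MamBo43 TRT, unlike those of Cav1 and Cavin1.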

How the data were processed

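RNA was read in single-end mode over 75 nucleotides. Per the paper's methods, the authors used bcl2fastq, STAR 2.5 and RSEM 1.3.0, and the submitters' processing notes name mm10. The authors deposited expected counts per gene, not normalized, and all were whole numbers, so no rounding was needed. Total counts had a median of 20592201 per library. Intervals and the floor of 3 counts cover counting error only.

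From the counts, genes were kept by filterByExpr of edgeR 4.0.16 in R 4.3.3 (minimum count 10, minimum total 15), scaled by TMM and tested with glmQLFit and glmQLFTest. The p-values were adjusted by the Benjamini-Hochberg method over all genes tested. Calls followed the thresholds of the study's methods, with an adjusted p below 0.1 and a log2 fold change of 1 or more in either direction. The comparison by HER2 status used 6 against 5 libraries, comparisons of lines a fit with 4 groups, and those of trastuzumab a fit with 6 groups. Fold changes use a prior count of 0.125, and for the error (SE) the size of the log2 fold change was divided by the root of its F statistic. CPM use TMM sizes over the genes tested by HER2 status. The fits were tested on simulated data. Exact permutation tests used log2(CPM + 1).

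The text names the 7 members, the 2 called genes that changed most in each direction by HER2 status from each of 6 pathway lists, and the 3 genes most like each member. Cdh5, Adipoq, Fabp4, Myod1, Des, Acta1, Col1a2, Lum, Thy1, Epcam and Cdh1 are markers from fixed lists. The members, lists and comparisons were chosen with earlier results of these data known. Each library is a separate sample by its labels, which do not say whether the cultures were independent, so p-values measure the spread between these libraries. No pair of libraries within a group held identical counts. Gene coordinates were taken from GENCODE M21 (GRCm38). Alternatives were DESeq2 1.42.0, RLE size factors, other filters on low counts, an adjusted p under 0.05, subsets of libraries, tumor of origin as a covariate, and leaving out each library. Fits with the trastuzumab schedule or the code in the names as a block were chosen after seeing the data. Tables of promoters came from RefSeq, in which 6 of 7 members were matched.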

Additional observations from a re-analysis of the deposited data

Results flagged for a closer look

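Cavin1 had 518 CPM in the untreated MamBo38 library of the other code, against 281 to 303 CPM in the other 3 MamBo38 libraries, a gap too wide for 4 values by Dixon's test. Cavin2 had 83.5 CPM in the AG3 library of MamBo89, against 47.6 to 48.7 CPM in the other 3, and stood apart by the same test. Chance sets a value apart in about 1 in 20 groups tested in this way. The change with trastuzumab differed between lines in 6 tests. It was larger in MamBo43 than in MamBo89 by 2.67 for Cavin1 and by 3.44 for Cavin2 on the log2 scale. It was larger in MamBo43 than in MamBo38 by 2.67 for Cav1, 3.45 for Cavin1, 3.44 for Cavin2 and 4.89 for Cavin3. All 6 rest on the single untreated MamBo43 library.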

How the results depend on the processing

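A stricter filter, with 10 counts or more required in each library, which removes Cav1, Cavin1 and Cavin3 from testing, left 2597 genes and 1 member called by HER2 status, 3038 and 2 for MamBo38 against MamBo89, 2810 and 2 for MamBo38 against MamBo43, 1391 and 1 for MamBo43 against MamBo89, 1318 and 0 for MamBo43 TRT against MamBo38, and 2462 and 1 for MamBo43 TRT against MamBo43, and 1 member in each test of the difference in trastuzumab change. Untreated MamBo43 and MamBo89 fitted alone gave 952 genes. DESeq2 called 29 genes for trastuzumab in MamBo89 and 1 in MamBo38. At an adjusted p under 0.05, the trastuzumab change of MamBo43 differed from that of MamBo89 in 1991 genes and from that of MamBo38 in 1753. With unscaled library sizes, the exact permutation p of Cavin2 by HER2 status was 0.0541 (mean log2 difference 0.93).

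With single libraries left out, the genes called for trastuzumab in MamBo89 ranged from 0 to 2148, the highest without its untreated parental library. Those that differed in trastuzumab change between MamBo43 and MamBo89 ranged from 1606 (without the MamBo89 library at 60 days; 1664 without the MamBo43 TRT library at 60 days) to 4428, with 1 to 3 members. Between MamBo43 and MamBo38 they ranged from 1190 (without the MamBo38 library at 60 days; 1355 without its withdrawal library and 1495 without MamBo43 TRT at 60 days) to 3486. Where 1 library was left in a group, it was assumed to vary like the other groups.

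Values that changed sign were not called. With single libraries left out, Cav2 ranged from -0.18 to 0.051 in MamBo38 against MamBo89 (0.051 without AG3) and from -0.67 to 0.55 in MamBo43 TRT against MamBo38, where Pacsin2 ranged from -0.28 to 0.0032. For trastuzumab in MamBo89, Cav2 ranged from -0.37 to 0.24, Ehd2 from -0.21 to 0.19 and Pacsin2 from -0.30 to 0.70. Without AG3 they stood at 0.24, -0.13 and -0.30, and Ehd2 stood at -0.0033 with no filter. For trastuzumab in MamBo38, Cavin1 ranged from -0.81 to 0.071, Cavin3 from -0.59 to 0.25, Ehd2 from -0.38 to 0.19 and Pacsin2 from -0.29 to 0.055, each highest without the untreated library of the other code. The trastuzumab change of MamBo43 exceeded that of MamBo89 by -0.40 to 0.57 for Pacsin2, and that of MamBo38 by -1.15 to 0.10 for Cav2. The cause of these changes was not tested.

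No paired analysis was possible because the labels give no replicate numbers that groups share. Libraries do share trastuzumab schedules and codes across lines, so each was entered as a block, a choice made after seeing the data, by HER2 status, for MamBo38 against MamBo89 and for MamBo43 TRT against MamBo38. With the schedule as a block no member gained or lost a call. With the code, both of these comparisons of lines rested on the only MamBo38 library that carries the code of the other lines. Cavin2 then stood at 1.03 in MamBo38 against MamBo89, and Cav1 at -1.38 in MamBo43 TRT against MamBo38. Cav2 changed sign to 0.16 and -0.19 in these fits. Comparisons with untreated MamBo43 could not be repeated without its only library. MamBo43 and MamBo43 TRT have 1 and 2 libraries. DESeq2 gave no adjusted p for Cav1 by HER2 status.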
